A study of Mus with 96 samples.

Results

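Ciart, Bhlhe40, Bhlhe41, Usp2, Csnk1d and Csnk1e were examined as secondary feedback and modulator genes of the circadian clock in mouse liver. The members were the rows of the gene count table that carry these 6 symbols, out of 55487 genes in the table, and all 6 reached the minimum of 100 counts summed over all libraries that 15548 genes passed. The series holds 96 liver libraries made by BRB-seq, a method that barcodes each sample early and reads the 3′ ends of transcripts. Livers came from Hep-Bmal1WT mice (Bmal1 flx/flx without Cre) and Hep-Bmal1KO mice (Bmal1 flx/flx with 1 Alb-Cre allele), both on a C57BL/6J background, young adult, and fed either chow or, for a short period, cdHFD, which is high in fat and lacks choline. All groups carried the floxed Bmal1 alleles, and Cre under the albumin promoter targets hepatocytes. Whether all other liver cells of the Hep-Bmal1KO mice kept the gene was not tested here. Livers were taken at zeitgeber time (ZT, hours after lights on) 2, 6, 10, 14, 18 and 22, with 4 libraries at each of the 24 combinations of genotype, diet and time, as 2 males and 2 females except for Hep-Bmal1WT on cdHFD at ZT14, with 3 males and 1 female.

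In the circadian clock, BMAL1 and CLOCK bind E-boxes and drive genes whose products repress them, mainly the PER and CRY proteins. Ciart (also called Chrono) encodes a further repressor of BMAL1 and CLOCK, and Bhlhe40 and Bhlhe41 (also called Dec1 and Dec2) encode basic helix-loop-helix repressors that compete for the same E-boxes. Usp2 encodes a deubiquitinating enzyme that acts on clock proteins and is itself a well-known rhythmic transcript. Csnk1d and Csnk1e encode casein kinase 1 delta and epsilon, which phosphorylate PER proteins and so set how long these last.

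Per library, 1861740 to 9718615 reads were assigned to genes (median 6412078.5), and values below are CPM, counts scaled to library size, after TMM scaling. No pair of libraries held identical counts. The labels do not tie libraries of a group to separate cultures or litters, so p-values measure the spread between these libraries. Each of the 12 plate columns held 1 genotype and diet and 2 times, so that plate column and group cannot be told apart. In bulk liver, fewer cells of a type and less RNA per cell cannot be told apart either. The 6 hepatocyte markers were detected in every group, and no marker of the 6 cell type lists was at 0 in any group.

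The counts of Arntl, the gene symbol of Bmal1, are per gene and do not show whether reads cover the floxed part. They were therefore not used to test the deletion. Genotype labels were therefore compared with the data by 2 gene sets that did not contain the 6 members, 10 clock genes and 20 other genes that separated the genotypes at the other times. Each library was given a position between the Hep-Bmal1WT median and the Hep-Bmal1KO median. On both sets, 7 of 96 libraries lay nearer to the other genotype, and 8 more did so on 1 set only. The 7 were the libraries labelled Hep-Bmal1WT chow ZT6 replicate 2 and ZT18 replicate 4, Hep-Bmal1KO chow ZT6 replicate 4 and ZT10 replicate 3, Hep-Bmal1WT cdHFD ZT10 replicate 3 and ZT14 replicate 1, and Hep-Bmal1KO cdHFD ZT14 replicate 1. They are called discordant libraries here, and each result is given with and without them where they changed it. Since 1 of the 2 sets was made of clock genes, leaving these libraries out is not independent of members that follow the clock genes. The 20 other genes were picked because they separated the genotypes, so leaving these libraries out also favours wider genotype differences. Gaps and calls between genotypes that appear only without these libraries are therefore no separate support for a genotype difference.

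Ciart lies at chr3:95878500-95882257 (GRCm38.p6, the assembly of mm10) and had a median of 6 counts per library, with 9 of 96 libraries at 0. In Hep-Bmal1WT mice on chow it was highest at ZT10, with 17.6, 19.3, 39.1 and 24.2 CPM (25.04 ± 9.79, SD, n = 4), and its mean at ZT2 was 0.413 CPM. Every library at ZT10 lay above every library at the other 5 times. In Hep-Bmal1KO mice on chow the ZT10 libraries held 0.543, 3.15, 24.3 and 3.85 CPM. The high value of 24.3 CPM came from the discordant replicate 3, and without it the mean was 2.51 CPM. At ZT14 the Hep-Bmal1WT libraries on chow held 13.1, 13.7, 5.88 and 4.17 CPM and the Hep-Bmal1KO libraries 0.232, 1.504, 0.404 and 0.529 CPM. These groups did not overlap, nor did they at ZT18. With the discordant libraries left out, Hep-Bmal1KO was also lower without overlap at ZT6 (1.17 to 3.88 CPM in Hep-Bmal1WT, 0 to 0.522 CPM in Hep-Bmal1KO) and ZT10. Here and for the other members, overlap describes the values of 3 or 4 libraries per group, which can lie apart by chance. The share of all genes without overlap was not counted.

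On cdHFD the Ciart profile of Hep-Bmal1WT mice was highest at ZT6, with 10.4, 11.9, 7.29 and 9.44 CPM (9.75 ± 1.93, SD, n = 4). It stood at 5.04 CPM at ZT2 and at 0.965 CPM at ZT10, the time at which it was highest on chow. In Hep-Bmal1KO mice on cdHFD it held 1.46, 3.54, 2.41 and 2.06 CPM at ZT6 and 2.47, 3.69, 2.17 and 1.82 CPM at ZT10. The genotypes did not overlap at ZT2, ZT6 and ZT10 on cdHFD, with Hep-Bmal1KO lower at the first 2 times and higher at ZT10. With the discordant libraries left out they did not overlap at ZT14 either (1.04 to 1.33 and 0.139 to 0.696 CPM).

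Usp2 lies at chr9:44067021-44095627 and had a median of 158.5 counts per library. In Hep-Bmal1WT mice on chow its ZT10 libraries held 149, 128, 150 and 141 CPM (142 ± 10.3, SD, n = 4), against a mean of 8.94 CPM at ZT2. In Hep-Bmal1KO mice on chow the ZT10 libraries held 33.5, 32.7, 155 and 47.7 CPM. The value of 155 CPM again came from the discordant replicate 3, above the Hep-Bmal1WT libraries, while the other 3 had a mean of 37.99 CPM. At ZT14 the Hep-Bmal1WT libraries held 108, 100, 64.4 and 63.5 CPM and the Hep-Bmal1KO libraries 36.2, 26.1, 22.7 and 28.9 CPM, without overlap. With the discordant libraries left out, Hep-Bmal1KO was also lower without overlap at ZT10 and at ZT18 (42.4 to 50.98 CPM in Hep-Bmal1WT, 19.1 to 36.1 CPM in Hep-Bmal1KO).

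On cdHFD, Usp2 in Hep-Bmal1WT mice held 58.4, 65.3, 56.3 and 82.6 CPM at ZT6 and 67.8, 60.0, 25.3 and 61.4 CPM at ZT10. The low value at ZT10 was the discordant replicate 3. Hep-Bmal1KO mice on cdHFD had their highest mean at ZT10, with 26.6, 29.2, 41.4 and 54.2 CPM (37.9 ± 12.7, SD, n = 4). The genotypes did not overlap at ZT2 and ZT6 on cdHFD, with Hep-Bmal1KO lower at both, and with the discordant libraries left out also at ZT10 (59.97 to 67.8 and 26.6 to 54.2 CPM).

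Bhlhe40 lies at chr6:108660629-108666925 and had a median of 190 counts per library. In Hep-Bmal1WT mice on chow it held 15.6, 20.1, 14.9 and 18.7 CPM at ZT2 and 26.04, 65.3, 44.4 and 58.5 CPM at ZT10. Hep-Bmal1KO mice on chow held 24.002, 20.6, 30.5 and 39.7 CPM at ZT2 and 19.6, 21.2, 35.9 and 29.2 CPM at ZT10. The 2 genotypes did not overlap at ZT2, where Hep-Bmal1KO was higher, and overlapped at the other times. With the discordant libraries left out they also did not overlap at ZT6 (26.6 to 38.7 CPM in Hep-Bmal1WT, 16.5 to 22.98 CPM in Hep-Bmal1KO) and ZT18 (33.3 to 43.4 and 21.4 to 32.97 CPM), with Hep-Bmal1KO lower. On cdHFD the means of Bhlhe40 over time lay between 25.2 and 36.3 CPM in Hep-Bmal1WT and between 18.99 and 30.03 CPM in Hep-Bmal1KO mice, and the genotypes overlapped at every time, except at ZT14 with the discordant libraries left out (34.04 to 42.4 and 26.7 to 33.9 CPM).

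Bhlhe41 lies at chr6:145858243-145865420 and was close to the limit of detection, with a median of 2.5 counts per library and 35 of 96 libraries at 0. In Hep-Bmal1WT mice on chow its ZT10 libraries held 4.23, 6.43, 0.210 and 1.77 CPM, from 19, 33, 1 and 8 counts, and the means at the other 5 times were between 0.229 and 0.843 CPM. In Hep-Bmal1KO mice on chow 18 of 24 libraries held no count, which allows up to 3 counts, or 0.409 to 0.675 CPM of those libraries' totals before TMM scaling, for counting error only. On chow the genotypes did not overlap at ZT14 and, with the discordant libraries left out, at ZT10 (0.210 to 6.43 CPM in Hep-Bmal1WT, 0 to 0.160 CPM in Hep-Bmal1KO). On cdHFD, 6 of 24 Hep-Bmal1WT and 3 of 24 Hep-Bmal1KO libraries were at 0.

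Csnk1d lies at chr11:120957709-120991350 and had a median of 216 counts per library. Its lowest, median and highest values were 19.9, 30.3 and 37.6 CPM in Hep-Bmal1WT on chow and 25.9, 34.5 and 41.5 CPM on cdHFD. In Hep-Bmal1KO they were 22.0, 30.9 and 38.8 CPM on chow and 25.3, 34.3 and 43.6 CPM on cdHFD. All 4 ranges overlapped, with the cdHFD medians above the chow medians in both genotypes.

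Csnk1e lies at chr15:79417852-79455579 and had a median of 40 counts per library. Its lowest, median and highest values in Hep-Bmal1WT mice were 0.933, 4.62 and 7.25 CPM on chow and 5.44, 7.29 and 11.4 CPM on cdHFD. In Hep-Bmal1KO mice they were 0.678, 3.63 and 7.78 CPM on chow and 5.84, 8.35 and 14.3 CPM on cdHFD. The cdHFD median of each genotype lay above its highest chow library. The discordant Hep-Bmal1KO chow ZT6 replicate 4 gave the value of 7.78 CPM. The genotypes did not overlap at ZT10 on chow, with Hep-Bmal1KO lower, and with the discordant libraries left out also at ZT6 on chow (5.39 to 7.25 CPM in Hep-Bmal1WT, 0.678 to 3.62 CPM in Hep-Bmal1KO) and, with Hep-Bmal1KO higher, at ZT10 on cdHFD (7.06 to 7.37 and 7.44 to 14.3 CPM).

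**Figure D1:**
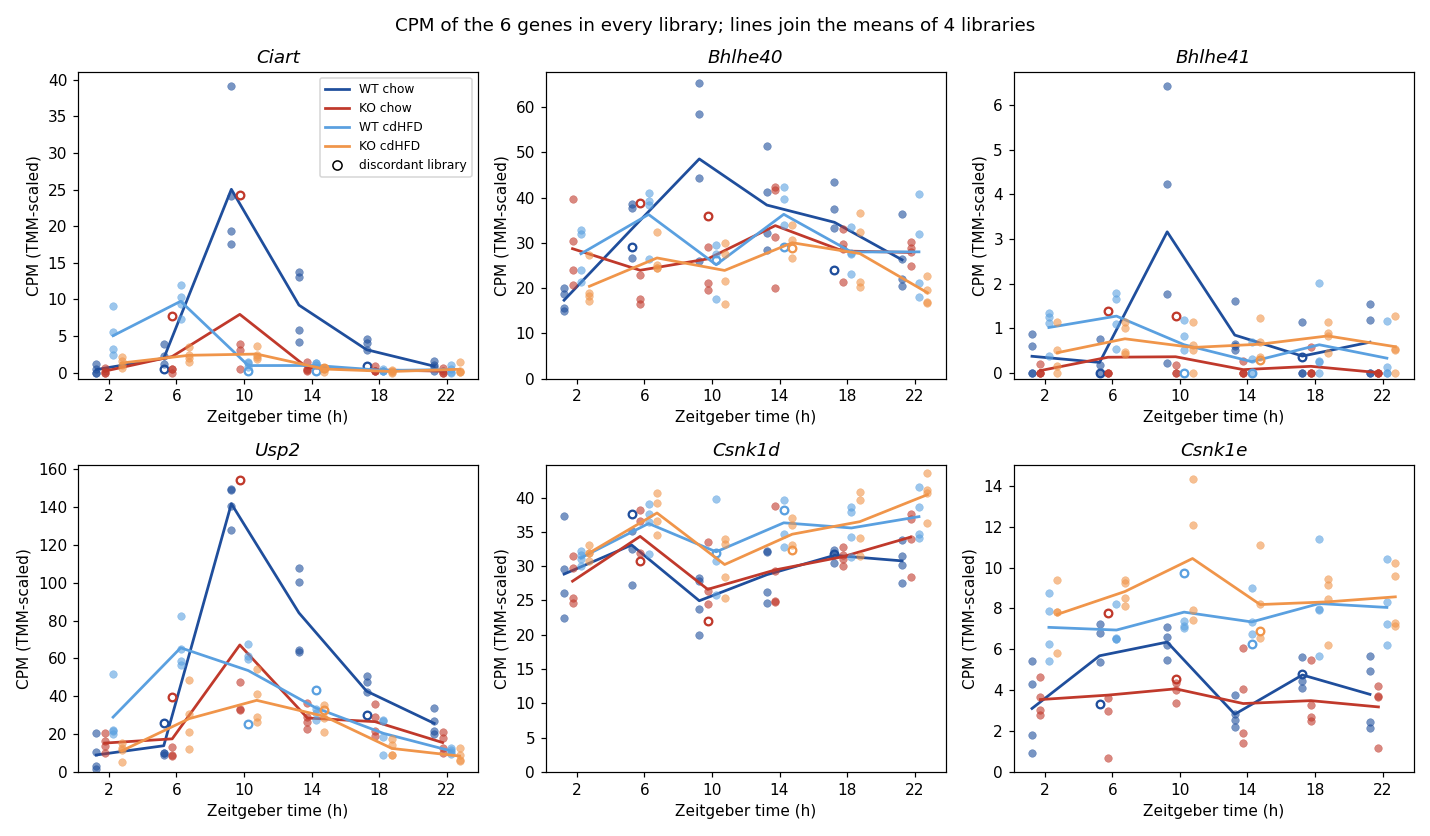
CPM (vertical axes) of the 6 genes against zeitgeber time in hours (horizontal axes), with 1 point per library, lines through the means of 4 libraries and an open circle for each discordant library. Ciart and Usp2 on chow are highest at ZT10 in Hep-Bmal1WT, and the open circle of Hep-Bmal1KO on chow at ZT10 lies with the Hep-Bmal1WT libraries at 24.3 CPM for Ciart and 155 CPM for Usp2.

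A 24-h rhythm was tested in each group of 24 libraries with edgeR's quasi-likelihood test on a cosine and a sine term. Adjusted p-values here and below are Benjamini-Hochberg values over all 15548 genes, except for peak times and DESeq2 tests. For peak times they cover the genes with a rhythm in both groups, and DESeq2 tests use DESeq2's own adjusted p. In Hep-Bmal1WT on chow, 3 of 6 members were called (19.1% of all genes were), namely Ciart (adjusted p = 9.67e-07), Usp2 (3.39e-05) and Bhlhe40 (0.00182). In Hep-Bmal1WT on cdHFD, 2 of 6 were called (14.6% of all genes), Ciart (6.89e-07) and Usp2 (3.01e-06). The same 2 genes were called in Hep-Bmal1KO on chow (4.34% of all genes), at 0.00458 for Ciart and 0.0185 for Usp2, and in Hep-Bmal1KO on cdHFD (3.83% of all genes), at 1.38e-04 and 1.24e-05. Bhlhe41, Csnk1d and Csnk1e were called in no group. In Hep-Bmal1KO on chow, leaving out the discordant libraries gave an adjusted p of 0.0444 for Ciart and 0.0112 for Usp2, both called. Leaving out replicate 3 ended the call of Ciart (adjusted p = 0.0817), and leaving out replicate 1, 2, 3 or 4 ended that of Usp2 (0.0957, 0.0564, 0.0808 and 0.0751), with fitted amplitude sizes of 0.69 to 1.04 for Usp2 on the log2 scale. An F test of the cosine fit on variance-stabilised values called neither gene there (adjusted p = 0.127 and 0.0944).

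Amplitudes were fitted on variance-stabilised values, a scale close to log2 for high counts that compresses low ones. Ciart had an amplitude of 1.64 ± 0.21 (SE, n = 24) in Hep-Bmal1WT on chow, 0.83 ± 0.25 in Hep-Bmal1KO on chow, 1.14 ± 0.18 in Hep-Bmal1WT on cdHFD and 0.75 ± 0.09 in Hep-Bmal1KO on cdHFD. Usp2 had 1.74 ± 0.24, 0.74 ± 0.20, 1.05 ± 0.14 and 1.01 ± 0.13 in the same order. Bhlhe40 had 0.52 ± 0.11 in Hep-Bmal1WT on chow and 0.15 ± 0.10 in Hep-Bmal1KO on chow. Fitted amplitudes of Ciart, Usp2 and Bhlhe40 were thus lower in Hep-Bmal1KO on chow, and the tests of these differences follow.

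**Figure D2:**
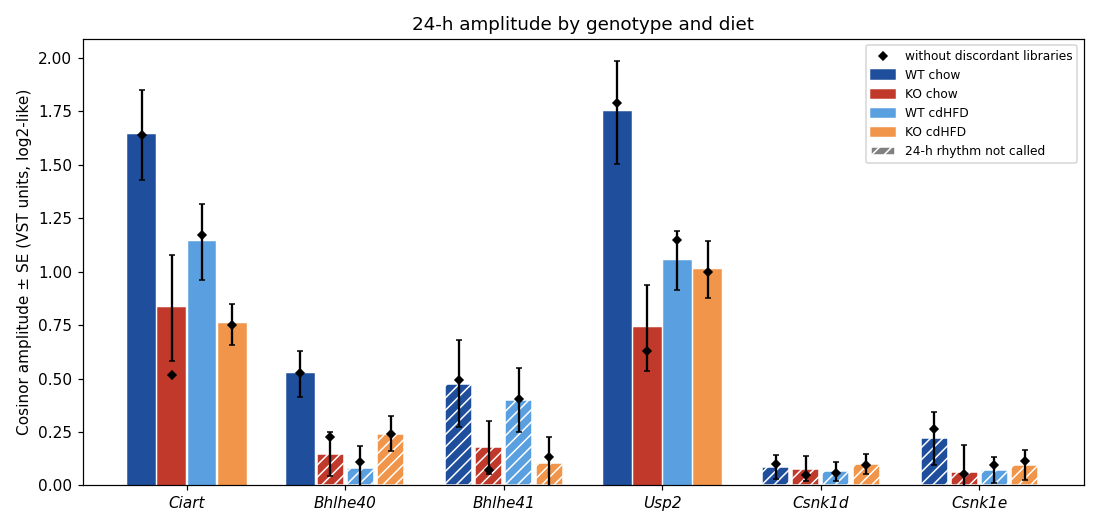
Fitted 24-h amplitude (variance-stabilised scale) of the 6 genes in the 4 groups of 24 libraries, with error bars of 1 SE, hatching where no rhythm was called and diamonds for the fit without the discordant libraries. Ciart and Usp2 have their highest amplitudes in Hep-Bmal1WT on chow, at 1.64 and 1.74, and Csnk1d lies between 0.07 and 0.10 in all 4 groups.

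On chow the amplitude of Usp2 was lower in Hep-Bmal1KO by 1.01 ± 0.31 (SE, unadjusted p = 0.00256, adjusted p = 0.604 in a comparison of cosinor fits over all genes), that of Ciart by 0.81 ± 0.32 (unadjusted p = 0.0165) and that of Bhlhe40 by 0.37 ± 0.15 (unadjusted p = 0.0162). None of them passed the adjusted threshold, as 0.0193% of all genes did. With these libraries left out, the Ciart difference was -1.12 ± 0.25 (adjusted p = 0.0176) and was called, where 0.424% of all genes were, and that of Usp2 was -1.16 (adjusted p = 0.0512). On cdHFD no amplitude difference between genotypes was called among the members (0.0193% of all genes), and none had an unadjusted p under 0.05. Between diets, no member was called in Hep-Bmal1WT (0.0579% of all genes), with 2 at an unadjusted p under 0.05, or in Hep-Bmal1KO (0% of all genes), with 0.

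Peak times moved with diet in Hep-Bmal1WT mice. Ciart peaked at ZT12.0 ± 0.49 h (SE) on chow and at ZT5.30 ± 0.60 h on cdHFD, a difference of -6.73 ± 0.80 h (adjusted p = 1.8e-08). Usp2 peaked at ZT13.5 ± 0.53 h and at ZT8.55 ± 0.50 h, a difference of -4.93 ± 0.84 h (adjusted p = 7.9e-06). When the discordant libraries were left out, the differences were -6.24 ± 0.79 h and -5.10 ± 0.81 h, and both were called. Among genes with a rhythm in both groups, 39.7% of 979 were called. Of the core clock list, 14 genes had a rhythm in both groups, and all 14 peaked earlier on cdHFD and were called, by a median of 4.63 h (differences of -6.77 to -2.61 h).

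In Hep-Bmal1KO mice, Ciart peaked at ZT10.1 ± 1.13 h on chow and ZT6.97 ± 0.48 h on cdHFD, and Usp2 at ZT12.6 ± 1.04 h and ZT10.4 ± 0.50 h. The differences of -3.15 ± 1.28 h (adjusted p = 0.0546) and -2.17 ± 1.10 h (adjusted p = 0.130) were not called, where 31.7% of 101 genes with a rhythm in both groups were. After the discordant libraries were removed, they were -4.32 ± 1.13 h (adjusted p = 0.00299) and -3.65 ± 1.02 h (adjusted p = 0.00492), and both were called, as were 32.7% of genes. The 5 core clock genes with a rhythm in both groups peaked earlier on cdHFD by a median of 0.80 h (differences of -2.25 to -0.16 h), and 1 was called. Whether the diet moved the peaks by different amounts in the 2 genotypes was not tested.

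Between genotypes, the peak of Usp2 on cdHFD was later in Hep-Bmal1KO by 1.83 ± 0.71 h (adjusted p = 0.147) and that of Ciart by 1.67 ± 0.87 h (adjusted p = 0.305), so that neither was called (5.04% of 377 genes were). On chow the differences were -0.925 ± 1.25 h for Usp2 and -1.91 ± 1.18 h for Ciart, and neither was called (0.652% of 460 genes). The core clock genes with a rhythm in both genotypes on cdHFD, 11 in number, were all later in Hep-Bmal1KO, by a median of 1.88 h, and 3 of them were called.

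**Figure D3:**
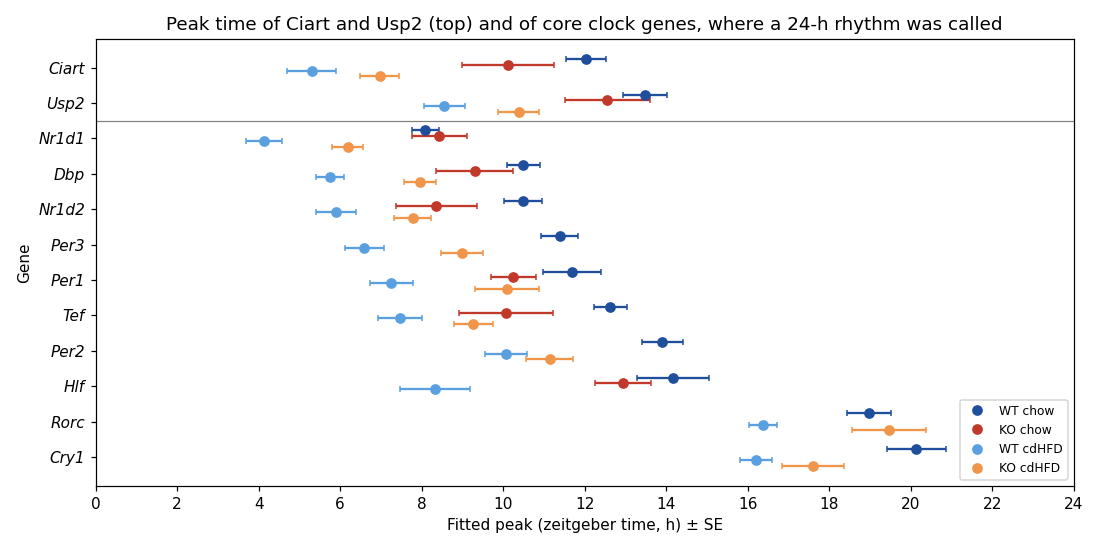
Fitted peak (zeitgeber time in hours, with bars of 1 SE) of Ciart and Usp2 and of core clock genes that peaked between ZT4 and ZT21 in Hep-Bmal1WT on chow, drawn where a rhythm was called. The cdHFD points of Hep-Bmal1WT lie left of the chow points, at ZT5.30 against ZT12.0 for Ciart and ZT8.55 against ZT13.5 for Usp2.

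The test of a different rhythm between diets gave the same 2 genes in Hep-Bmal1WT, with Ciart at an adjusted p of 1.16e-07 and Usp2 at 3.18e-04, so that 2 of 6 members were called against 6.19% of all genes. Bhlhe40 had an adjusted p of 0.0887. In Hep-Bmal1KO edgeR called 0 of 6 (0.907% of all genes) and DESeq2 0, with 1 member, Ciart, at an unadjusted p under 0.05. After the discordant libraries were removed, Usp2 was called there (adjusted p = 0.0379), where 1.18% of all genes were. The test of a different rhythm between genotypes called 0 of 6 members on chow (0.392% of all genes), with Ciart, Bhlhe40 and Usp2 at an unadjusted p under 0.05, and 0 of 6 on cdHFD (0.424% of all genes), with Ciart and Usp2. DESeq2 called 0 in both, and without the discordant libraries edgeR called 0 in both as well.

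Mean levels over the 6 times were compared between genotypes within each diet. On chow, Ciart was lower in Hep-Bmal1KO by 1.84 on the log2 scale (log2 fold change -1.84 ± 0.42, SE, adjusted p = 0.00157) and Bhlhe41 was lower too (-2.12 ± 0.61, adjusted p = 0.0137). No member was called higher (7% of all genes were) and 2 of 6 were called lower (5.61% of all genes). Without replicate 1 neither was called (Ciart -1.41, adjusted p = 0.0663, and Bhlhe41 -1.29, adjusted p = 0.349), and without replicate 2 Bhlhe41 was not (-1.89, adjusted p = 0.0844). At every time on chow, replicates 1 and 2 were males and replicates 3 and 4 females. Leaving out a replicate number there thus also changed the balance of the sexes. Usp2 had -0.57 ± 0.21 (adjusted p = 0.0656), Bhlhe40 -0.18 (0.395), Csnk1e -0.28 (0.373) and Csnk1d 0.04. Without the discordant libraries, Ciart had -3.07 ± 0.32 (adjusted p = 4.3e-10), Bhlhe41 -3.25 ± 0.62 and Usp2 -0.79 ± 0.19 (adjusted p = 0.00183), and all 3 were called, where 17.1% of all genes were.

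Both discordant Hep-Bmal1KO libraries on chow were female. In males alone the log2 fold changes on chow were -3.27 for Ciart, -4.88 for Bhlhe41 and -1.17 for Usp2, and all 3 were called. In females alone they were -1.17 for Ciart (adjusted p = 0.212), -0.42 for Bhlhe41 and -0.04 for Usp2, and none was called. The difference between the sexes was not tested. The Bhlhe41 value in males rests on a Hep-Bmal1KO mean of 0.0154 CPM (SD 0.0532, n = 12). Its size thus depends on the prior count of the fit. The shares of all genes called in each sex alone are not given here. The summed level of the 6 hepatocyte markers had a median of 147201 CPM in Hep-Bmal1WT and 95681 CPM in Hep-Bmal1KO on chow, and that of 4 cholangiocyte markers 14.1 and 28.05 CPM (21.6 and 37.3 CPM on cdHFD). Their part in these results was not tested.

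On cdHFD, Usp2 was lower in Hep-Bmal1KO (-0.75 ± 0.15, adjusted p = 3.59e-04), as were Bhlhe40 (-0.30 ± 0.09, adjusted p = 0.0160) and Ciart (-0.94 ± 0.30, adjusted p = 0.0356). Thus 3 of 6 members were called lower (4.99% of all genes) and 0 higher (4.62%), with Csnk1e at 0.19 (adjusted p = 0.167). With the discordant libraries left out, the same 3 were called, at -0.81, -0.31 and -1.11. The shares above are for all libraries, and the share of all genes called in this setting is not given here. Leaving out replicate 1 or 2 of each combination left Usp2 as the single call, with Ciart at -0.72 (adjusted p = 0.228) and -1.09 (0.0553) and Bhlhe40 at -0.24 (0.162) and -0.32 (0.0580), and without replicate 4 Ciart was not called (-0.85, 0.183). The DESeq2 test gave Ciart an adjusted p of 0.0819. With edgeR in males alone, Usp2 (-0.90) and Bhlhe40 (-0.35) were called and Ciart was not (-0.57, adjusted p = 0.486). In females alone none was called, with Ciart at -1.33 (adjusted p = 0.0596), Usp2 at -0.60 and Bhlhe40 at -0.26. The shares of all genes in each sex are not given here.

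At single times, 4 libraries were set against 4. On chow, Bhlhe40 was lower in Hep-Bmal1KO at ZT10 (-0.88 ± 0.25, adjusted p = 0.0301), where 2.68% of all genes were called. At ZT14, Ciart (-3.76 ± 0.78, adjusted p = 9.68e-04) and Usp2 (-1.57 ± 0.41, adjusted p = 0.0105) were lower, where 4.79% of all genes were called. The Bhlhe40 call was lost without replicate 1 (-0.97, adjusted p = 0.101), 2 (-0.61, 0.330) or 4 (-0.83, 0.178), and that of Usp2 without replicate 1 (-1.56, 0.0935) or 2 (-1.43, 0.0771). No member was called at ZT2 (0.894%), ZT6 (0.00643%), ZT18 (0.617%) or ZT22 (1.19%). On cdHFD edgeR called 0 of 36 tests, with 5 at an unadjusted p under 0.05, and DESeq2 0, where the shares of all genes from ZT2 to ZT22 were 0.367%, 0.277%, 0.00643%, 0%, 0.0579% and 0.0129%.

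When the discordant libraries were left out, 8 of 36 tests on chow were called (3.65% over all genes and times). They were Ciart at ZT10 (-3.30), ZT14 (-3.76) and ZT18 (-3.18), Usp2 at ZT10 (-1.90) and ZT14 (-1.57), Bhlhe40 (-1.06) and Bhlhe41 (-5.35) at ZT10, and Csnk1e at ZT6 (-1.36). On cdHFD, 4 of 36 were called (0.56%), Ciart at ZT2 (-1.95) and ZT6 (-2.03) and Usp2 at ZT2 (-1.38) and ZT6 (-1.23). The Bhlhe41 value rests on Hep-Bmal1KO libraries with almost no counts, so its size depends on the prior count of the fit.

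The casein kinase genes changed with diet in both genotypes. In Hep-Bmal1WT, Csnk1e was higher on cdHFD (0.79 ± 0.13, adjusted p = 6.03e-07) and so was Csnk1d (0.24 ± 0.05, adjusted p = 2.58e-04), 2 of 6 members called higher against 28.7% of all genes and none called lower against 27%. Ciart had -1.14 ± 0.53 (adjusted p = 0.0645). In Hep-Bmal1KO, Csnk1e rose by 1.27 ± 0.14 (adjusted p = 3.71e-11), Csnk1d by 0.20 ± 0.05 (adjusted p = 5.62e-04) and Bhlhe41 by 1.98 ± 0.50 (adjusted p = 5.36e-04), 3 called higher against 32.4% of all genes. Usp2 was the single member called lower (-0.42 ± 0.19, adjusted p = 0.0491) against 29.6% of all genes. That call was lost with DESeq2 size factors (adjusted p = 0.0743), with the DESeq2 test (0.0797) and without replicate 1, 2 or 4 (0.0868, 0.0564 and 0.294), while Bhlhe40 was called lower with sex as a covariate (-0.20, adjusted p = 0.0369) and without replicate 2 (-0.29, adjusted p = 0.0208). After the discordant libraries were removed, Usp2 was not called (-0.24), Bhlhe41 had 3.11 and Ciart went from -0.19 to 0.71, called in neither, while Csnk1d and Csnk1e were called in both genotypes as before. The Bhlhe41 values in Hep-Bmal1KO rest on a chow mean of 0.160 CPM, against 0.636 CPM on cdHFD. Their size thus depends on the prior count of the fit.

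Marker lists of several cell types differed between diets beside these genes. The summed median of 5 macrophage markers was 292 CPM on chow and 1408 CPM on cdHFD in Hep-Bmal1WT and 278 and 1611 CPM in Hep-Bmal1KO, with ranges of 164 to 455, 698 to 1782, 134 to 478 and 1027 to 2191 CPM. That of 5 leukocyte markers was 17.5 and 102 CPM in Hep-Bmal1WT and 16.99 and 115 CPM in Hep-Bmal1KO, and that of 5 stellate cell markers 243 and 609 CPM and 246 and 750 CPM. The hepatocyte sum was 147201 and 72311 CPM in Hep-Bmal1WT and 95681 and 61278 CPM in Hep-Bmal1KO, while 5 endothelial markers stood at 125 and 150 CPM and at 125 and 132 CPM and 4 cholangiocyte markers at 14.1 and 21.6 CPM and at 28.05 and 37.3 CPM. Their part in the diet effects on Csnk1e, Csnk1d and Bhlhe41 was not tested.

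**Figure D4:**
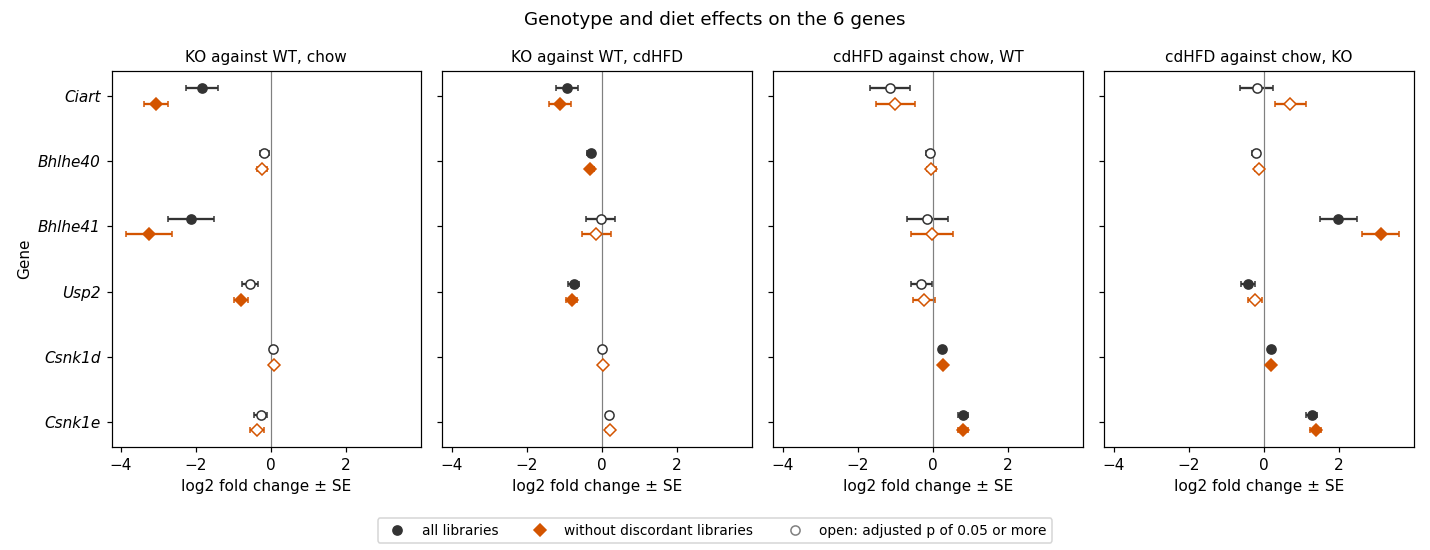
Log2 fold changes with bars of 1 SE for the 6 genes, by genotype within each diet and by diet within each genotype, with all libraries (circles) and without the discordant ones (diamonds), filled where the adjusted p was under 0.05. Ciart on chow moves from -1.84 to -3.07 without the discordant libraries, and Csnk1e lies right of 0 in both diet panels, at 0.79 and 1.27.

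The genotype and diet comparisons share libraries, so their values are set side by side without a further test of overlap. The difference of the diet effect between genotypes was tested directly and edgeR called no member higher (1.04% of all genes) or lower (2%), with Bhlhe41 at 2.14 ± 0.72 (adjusted p = 0.0809), Ciart at 0.91 and Csnk1e at 0.48 (adjusted p = 0.158). At an unadjusted p under 0.05 there were 2, Bhlhe41 and Csnk1e, and DESeq2 called 0. After the discordant libraries were removed, Ciart (1.97, adjusted p = 0.00205) and Bhlhe41 (3.20, adjusted p = 0.00245) were called higher, where 5.91% of all genes were called. The Bhlhe41 values again rest on Hep-Bmal1KO chow libraries with almost no counts, so their size depends on the prior count of the fit.

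Bhlhe40 was the single member that edgeR called by sex, lower in males by 0.27 ± 0.06 on the log2 scale (log2 fold change -0.27, adjusted p = 8.46e-04). Its mean was 31.5 CPM in females and 26.6 CPM in males, and the female mean was higher in 18 of 24 combinations. Thus 1 of 6 members was called lower in males (8.99% of all genes) and 0 higher (8.24%). Without the discordant libraries Bhlhe40 had -0.26 (adjusted p = 0.00141). Csnk1e had -0.23 (adjusted p = 0.0785), and DESeq2 called it (adjusted p = 0.0454).

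Other genes of the pathway were taken from 2 lists, 16 core clock genes and 12 genes for enzymes and other proteins that modify clock proteins. A rhythm was called for 14 core clock genes in Hep-Bmal1WT on either diet, 6 in Hep-Bmal1KO on chow and 11 in Hep-Bmal1KO on cdHFD. Of the 12 modifiers it was called for 3, 4, 2 and 0 in Hep-Bmal1WT chow, Hep-Bmal1WT cdHFD, Hep-Bmal1KO chow and Hep-Bmal1KO cdHFD. The shares of all genes in the same order were 19.1%, 14.6%, 4.34% and 3.83%. Between genotypes, no modifier was called on either diet, while 4 core genes were called higher and 2 lower on chow, and 1 higher and 4 lower on cdHFD. The higher ones included Npas2, a paralogue of Clock, at 1.93 on chow and 1.17 on cdHFD. Among the lower ones, the largest change was that of Nr1d2 on chow and of Per3 on cdHFD. Between genotypes, 7% of all genes were called higher and 5.61% lower on chow, and 4.62% and 4.99% on cdHFD. Between diets 4 modifiers were called in Hep-Bmal1WT, 2 higher and 2 lower, and 7 in Hep-Bmal1KO, 3 higher and 4 lower. The largest called decrease was that of Csnk2a1, a casein kinase 2 subunit, at -0.44 and -0.38. The largest called increase was that of Fbxw11 in Hep-Bmal1WT and of Hdac3 in Hep-Bmal1KO. Of all genes, 28.7% were called higher and 27% lower in Hep-Bmal1WT, and 32.4% and 29.6% in Hep-Bmal1KO. The median log2 fold change of the 6 members between genotypes was -0.42 on chow (-0.01 over all genes) and -0.17 on cdHFD (0.01 over all genes).

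Likeness was described by Pearson's r over the 24 combination means of log2 CPM, across 8996 genes with a mean of at least 5 CPM. The 24 points come from 96 libraries shared by all genes, so r is a description and has no p. The most similar genes to Ciart were Pcsk4 (0.922), Dbp (0.910), a clock output factor, and Per3 (0.873), and those to Usp2 were Per2 (0.901), Noct (0.881) and Coq10b (0.877). Bhlhe40 had Per2 (0.733) and Azin1 (0.712). For Bhlhe41 they were Slc19a1 (0.797), 1810058I24Rik (0.791) and Pik3cb (0.785). Csnk1d had Vps51 (0.920), Maea (0.898) and Hexa (0.892), and Csnk1e had Il10rb, Tmsb10 and Rasa3 (0.947 each). Among the members, Ciart and Usp2 had r = 0.790, Bhlhe40 and Usp2 0.738, Ciart and Bhlhe41 0.679, and Csnk1d and Csnk1e 0.498.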

How the data were processed

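Liver RNA of 96 mice was measured by BRB-seq with a MERCURIUS kit on a NovaSeq sequencer. The authors demultiplexed the reads with BRB-seq tools, aligned them to mm10 with STAR and counted them per gene, with HTSeq and featureCounts both named in the submitters' processing notes. The deposited values are raw counts, and whether unique molecular identifiers were collapsed is not given in the sources used here. Reads that were not aligned (14.8 to 34.0% of reads) or had no feature (5.65 to 11.3%) were left out of library sizes and tests. Reads of 3′ ends count transcripts and not their length. Levels were not compared between genes. Intervals and limits from counts of 0 cover counting error only.

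Groups were taken from the labels. Genes with at least 100 counts over all libraries were tested with edgeR 4.0.16 (R 4.3.3), TMM scaling and the quasi-likelihood F test: rhythm as the joint test of both harmonic terms at a 24-h period, genotype and diet effects as contrasts with time in the model, and their interactions. Adjusted p under 0.05 was a call. Amplitude and peak time came from cosinor fits to values transformed with DESeq2 1.42.0. Peak times were compared where a rhythm was called in both groups. Alternatives were DESeq2 tests and size factors, no filter beyond 1 count, the sex as a covariate, each sex alone, log2 CPM with a prior count of 2, each replicate number left out and the discordant libraries left out. The statistical scripts were tested on simulated data. The members and gene lists were chosen with earlier results of these data known. The genes named beside the members were the 3 most similar in profile and, in each list, the largest called change in a direction. For Bhlhe40, 1 of the 3 is not reported here. Positions were matched by symbol to RefSeq (GRCm38.p6). Promoter sequences were not analysed here.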

Additional observations from a re-analysis of the deposited data

Results flagged for a closer look

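Dixon's test was run on a member's log2 CPM (prior count of 2) in each group of 4 libraries. In 14 of 143 groups a library lay far from the other 3, where chance gives about 1 in 20. In 4 of the 14 the other 3 libraries were all at 0, so that the test flags any count and that rate does not apply, which leaves 10. All 4 were values of Bhlhe41 in Hep-Bmal1KO on chow. They were ZT2 replicate 2 (0.184 CPM), the discordant ZT6 replicate 4 (1.38 CPM), ZT14 replicate 3 (0.269 CPM) and ZT18 replicate 3 (0.568 CPM). Of the 10, Usp2 in Hep-Bmal1WT chow ZT6 replicate 2 (26.1 CPM) came from a discordant library. So did Usp2 (25.3 CPM) and Csnk1e (9.71 CPM) in Hep-Bmal1WT cdHFD ZT10 replicate 3. Bhlhe41 also stood apart in Hep-Bmal1WT cdHFD ZT2 replicate 2 (0.367 CPM). In that last library Usp2 was high (51.6 CPM). The others were Ciart in Hep-Bmal1KO cdHFD ZT22 replicate 2 (1.46 CPM), Bhlhe40 in Hep-Bmal1WT cdHFD ZT6 replicate 3 (26.5 CPM) and Hep-Bmal1KO cdHFD ZT6 replicate 4 (32.5 CPM), and Csnk1e in Hep-Bmal1WT cdHFD ZT6 replicate 4 (8.21 CPM) and Hep-Bmal1KO chow ZT22 replicate 2 (1.15 CPM).

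The 24-h rhythm differed between diets in Hep-Bmal1WT mice for Ciart (edgeR adjusted p = 1.16e-07) and Usp2 (adjusted p = 3.18e-04), by a direct test of the difference.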

How the results depend on the processing

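Of 1080 alternative values for single genes, 999 kept their direction and side of the threshold, 34 lost a call, 21 gained a call and 26 changed sign. The count of members with a rhythm in Hep-Bmal1KO on chow (2) was 0 with a cosinor F test and 0 to 1 when a replicate number was left out. Genotype calls on chow (2) were 0 in females alone and 0 to 3 with a replicate left out, with 0 without replicate 1 and 1 without replicate 2, and those on cdHFD (3) were 0 in females alone and 1 to 3. Genotype calls at single times on chow (3) were 8 without the discordant libraries, 9 at an unadjusted p under 0.01 and 1 to 6 with a replicate left out, and on cdHFD (0) they were 4 and 4. Calls of a different diet effect between genotypes (0) were 2 without the discordant libraries, 1 at an unadjusted p under 0.01 and 0 to 1 with a replicate left out, here replicate 3. A different rhythm between genotypes on chow (0) was called for 1 at an unadjusted p under 0.01, and a different rhythm between diets in Hep-Bmal1KO (0) for 1 without the discordant libraries. Sex calls (1) were 2 with DESeq2. Without the discordant libraries, 1 amplitude difference between genotypes on chow was called (0 with all), and peak time differences between diets in Hep-Bmal1KO (0) were 2, against 1 with log2 CPM, 1 in males alone and 0 to 1 with a replicate left out, here replicate 4.

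Values that changed sign were small or had no call. For Bhlhe41 between genotypes on cdHFD they were 0.00501 with DESeq2, 0.28 in females alone and -0.14 to 0.0811 with a replicate left out, and between diets in Hep-Bmal1WT -0.35 to 0.18. For Csnk1d between genotypes they were -0.0116 in males alone on chow, and -0.0108 to 0.0778 on chow, -0.0193 to 0.058 on cdHFD and -0.0714 to 0.0323 for the difference between diets with a replicate left out. Ciart between diets in Hep-Bmal1KO was 0.71 without the discordant libraries and -0.45 to 0.28 with a replicate left out. Its amplitude difference there was 0.23 without the discordant libraries, 0.0521 on log2 CPM, 0.24 in males alone and -0.22 to 0.0455 with a replicate left out, and its sex effect was 0.0568 without the discordant libraries. Usp2 had a difference of diet effects of 0.00143 without the discordant libraries and -0.33 to 0.075 with a replicate left out, a sex effect of -0.0246 to 0.0876, an amplitude difference between genotypes on cdHFD of 0.17 in females alone and -0.24 to 0.0476, and a peak difference between genotypes on chow of 0.27 h without the discordant libraries. The causes were not tested. No paired analysis was possible because replicate numbers were given in accession order and pair no libraries. Replicates 1 and 2 were males at every time except ZT2 on cdHFD, where they were females. Settings that leave out a replicate number thus also changed the balance of the sexes. Bhlhe41, and Ciart away from its peak, had few counts, which limits the differences that could be seen.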
